A study of Homo sapiens with 12 samples.

Results

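The change in gene expression after DOC alone was read from 6 RNA-seq libraries of PC3 cells, 3 given DOC and 3 given PBS, out of 12 libraries in the series. PC3 is an established human prostate cancer cell line from a bone metastasis, and the labels give its genotype as WT. The PBS group is named BLANK, and the other 6 libraries are of cells given silver nanoparticles (AgNPs) or both agents (COM). DOC stands in the labels without its full name, dose, exposure time or batch, and nothing there says that replicates came from separate cultures. The gene p-values therefore rest on the spread between libraries of a group, pooled over all 12 libraries, and this spread may be technical. The libraries of each group were chosen by the sample labels alone, and the counts of all linear transcripts of a gene were summed over 43613 genes. Of these, 19986 passed the filter on low counts and were tested.

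Several gene groups recur below. Immediate early genes encode transcription factors such as FOS and JUN, the subunits of AP-1, whose mRNAs rise within minutes of a growth or stress signal and decay quickly. In the integrated stress response, phosphorylation of the initiation factor eIF2 lowers general translation while the factor ATF4 is translated and switches on genes of amino acid supply and, with DDIT3, of cell death. Cells copying their DNA make the MCM helicase, polymerases and deoxynucleotides under the control of E2F factors, and make core histones from mRNAs that end in a stem-loop rather than a poly(A) tail. The labels name an mRNA library kit but not whether poly(A) tails were used to select RNA.

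Summed linear counts were 22573481 to 22769479 in BLANK and 18603100 to 19421873 in DOC, where 3 counts correspond to 0.132 to 0.161 CPM. CPM are counts scaled to the library size, here with edgeR's TMM factors. Of the DOC libraries, replicate 1 stood apart. Its score on the second principal component of the 6 libraries, which held 21% of the variance, was −28.3 against 10.5 and 19.3, while the first component (34.4%) separated the groups. DOC replicate 1 also had the highest ratio of circular to linear counts, 18.7 per 100 against 15.3 and 14.2 in DOC replicates 2 and 3 and 13.9 to 15.9 in BLANK. Counts on RefSeq transcripts made up 86.6 ± 0.363% (SD, n = 3) in BLANK and 84.8 ± 0.405% in DOC; the groups did not overlap, and the two-sided exact permutation p of 0.1 is the smallest that 3 against 3 libraries allow. As for the identity of the cells, KRT8 was at 148 to 166 CPM, HOXB13 at 299 to 373 CPM and VIM at 783 to 878 CPM in the 6 libraries. TMPRSS2, a luminal prostate gene, had 2 counts in all. CTNNA1, which PC3 is known to lack, stood at 0.854 to 2.07 CPM. TMPRSS2 and CTNNA1 belong to a list of markers absent or low in PC3, of which 5 were in the table. That list summed to 14.57 to 16.74 CPM in BLANK and 13.43 to 15.25 CPM in DOC, so most of it lay on other members. Of its 2 tested members 1 was called higher and 1 lower. Of the markers of other cells, CHGA and DCN had no count, and PTPRC had 4 counts in all 6 libraries. Others were present, and 7 of 10 fibroblast markers passed the filter. In BLANK the fibroblast list summed to 117 to 129 CPM, the immune list to 41.5 to 46.1 CPM and the neuroendocrine list to 29.4 to 30.7 CPM.

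DOC changed many genes by small amounts. At a Benjamini-Hochberg adjusted p below 0.05 (edgeR's quasi-likelihood test over all genes tested), 3391 genes were called, 17% of those tested. Of these 1430 (7.16%) were higher and 1961 (9.81%) lower than in BLANK. DESeq2 gave 709 higher and 1555 lower, a split further towards lower calls, and without DOC replicate 2 the first test called 2204 genes in all. The median log2 change was 0.36 among genes called higher and −0.18 among those called lower. At least 2-fold changes were called in 153 genes higher and 6 lower. In all, 11288 protein-coding genes averaged a log2 CPM of 1 or more over all 12 libraries and had 50% or more of their counts on RefSeq rows. Of these, 8 rose at least 2-fold and none fell that far, although 614 were called higher and 1842 lower. The average includes AgNPs and COM. Thus the 8 include S100P, at means of 0.430 CPM in BLANK and 1.20 CPM in DOC against 9.02 CPM in AgNPs. NR4A2, also among them, had means of 0.875, 1.77 and 1.87 CPM in the same groups. Over all 13056 protein-coding genes tested, 753 (5.77%) were called higher and 1855 (14.2%) lower. DOC replicate 1 lay on the same side of the BLANK mean as the call in 1418 of the 1430 genes called higher and in 1955 of the 1961 called lower. Since that library took part in the calls, this is no independent check of it. Its median log2 distance from the BLANK mean was 0.32 for genes called higher, against 0.36 and 0.34 in DOC replicates 2 and 3. For genes called lower it was −0.15, against −0.20 and −0.19. The CPM of the 3 DOC and 3 BLANK libraries did not overlap in 6299 genes, 31.5% of those tested.

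Rises and falls were spread unequally over kinds of genes. Long non-coding RNAs had 275 higher and 41 lower calls among 2746 tested, and genes with no RefSeq row had 324 higher and 32 lower among 3294. In contrast, protein-coding genes counted mostly on RefSeq rows had 669 higher and 1843 lower calls among 12400. With counts on RefSeq rows only, long non-coding RNAs were not called higher more often than protein-coding genes: 73 of 1438 (5.08%) were higher and 16 lower, against 706 of 12358 (5.71%) and 1419. Their median log2 change there was still 0.117, close to the 0.120 over all rows, against −0.0188 for the protein-coding genes. Long non-coding RNAs were also scarcer, with a median of the average log2 CPM of 1.27 against 5.03. The 153 genes that rose at least 2-fold comprised 44 long non-coding RNAs, 47 genes with no RefSeq row and 45 such protein-coding genes. Lower calls were also more frequent among GC-rich and abundant genes. With the protein-coding genes cut into 4 equal classes from the lowest to the highest transcript GC content, 9.45, 11.7, 17.2 and 27.1% were called lower, whereas the share called higher stayed between 4.55 and 6.08%. From the least to the most abundant of 4 classes 3.79, 11.8, 18.4 and 31.3% were called lower, at median log2 changes of −0.005, −0.040, −0.038 and −0.053. For this reason most of the lists in which lower calls outnumbered higher ones are also given with the median after subtracting that of genes of the same GC and abundance class. The results are described through 48 lists with 1114 genes, of which 1083 were in the table and 1014 passed the filter. Counts are over the tested members, and for comparison 7.16% of all genes tested were called higher and 9.81% lower.

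**Figure D1:**
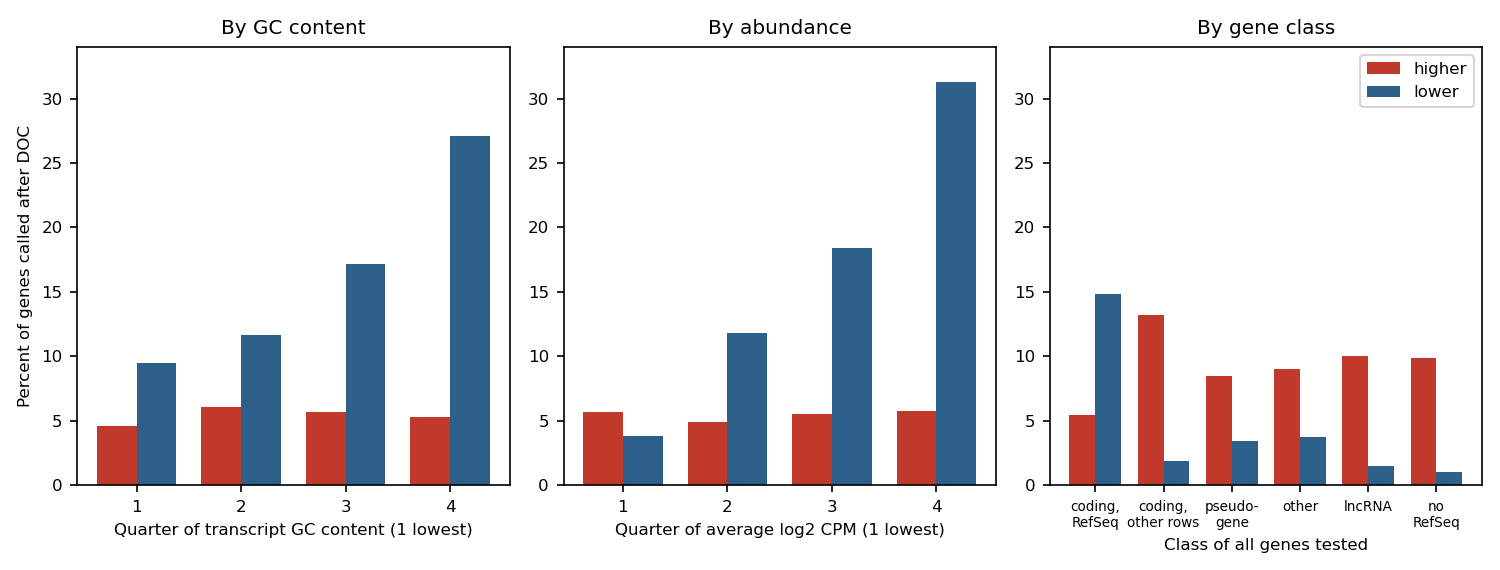
Percent of genes called higher (red) or lower (blue) after DOC, by 4 equal classes of transcript GC content, by 4 of average abundance (both for protein-coding genes averaging a log2 CPM of 1 or more over all 12 libraries) and by class for all genes tested. The lower calls rise from 9.45 to 27.1% with GC content and from 3.79 to 31.3% with abundance. Most lncRNAs and genes with no RefSeq row were not called, but higher calls outnumbered lower ones in both classes. The counts were 275 higher and 41 lower among 2746 lncRNAs, and 324 and 32 among 3294 genes with no RefSeq row.

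Immediate early transcription factors rose. Of 28 tested members of the list of AP-1 and immediate early factors 15 were called higher and 1 lower, against 7.16% and 9.81% of all genes, and the median log2 change was 0.24 against 0.00 over all genes. Without DOC replicate 1 the counts were 14 and 1. FOS (chromosome 14, 75278828 to 75282230, GRCh38) made the largest rise of any protein-coding gene that the naming rule covers. It stood at 1.03, 0.973 and 1.06 CPM in BLANK and at 3.40, 3.13 and 4.49 CPM after DOC, a 3.58-fold rise (log2 change 1.84 ± 0.19 SE, adjusted p = 8.35e-09). All 3 DOC libraries were above all 3 BLANK libraries, but the naming rule requires no overlap, which 31.5% of all genes tested met. FOSB, its close relative, went from 1.24 to 1.48 CPM up to 2.76 to 3.73 CPM (log2 1.22 ± 0.18, adjusted p = 1.03e-05). ATF3, a stress-induced partner of JUN, was measured at 7.06, 7.34 and 6.91 CPM in BLANK and 15.6, 15.9 and 15.2 CPM in DOC (log2 1.13 ± 0.08, adjusted p = 6.98e-13), so the libraries within a group differed far less than the groups. JUNB rose from 47.7, 48.1 and 51.5 CPM to 70.8, 67.0 and 70.8 CPM (log2 0.50 ± 0.04, adjusted p = 1.86e-10).

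Other members moved less. JUN rose by 0.25 ± 0.05 on the log2 scale, with 92.2 CPM in DOC replicate 1 against 74.6 and 77.8 CPM in replicates 2 and 3 and 68.2 to 69.1 CPM in BLANK, and by 0.15 without DOC replicate 1. ZFP36, which binds and destabilises short-lived cytokine mRNAs, rose by 0.72 ± 0.12, EGR2 by 0.98 ± 0.25, the orphan nuclear receptor NR4A2 by 1.02 ± 0.26, IER3 by 0.41 ± 0.04 and MAFF by 0.36 ± 0.07. EGR1 (log2 0.68 ± 0.59, adjusted p = 0.479) and NR4A1 (0.10 ± 0.10, adjusted p = 0.521) did not pass the test. MYC, the only member called lower, changed by −0.11 ± 0.03 (adjusted p = 0.0105) and was not called without BLANK replicate 1 or 3. NR4A2 was not called without DOC replicate 3. The members with the largest fold changes were scarce: per length, FOS was at 0.490 ± 0.020 FPKM (SD, n = 3) in BLANK and 1.78 ± 0.357 FPKM in DOC, whereas the AP-1 subunit FOSL1 was at 291 ± 18.3 and 321 ± 11 FPKM. FOSL1 changed by 0.11 ± 0.04 on the log2 scale (adjusted p = 0.0297), a call that was lost on leaving out any 1 of the 6 libraries but BLANK replicate 1.

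**Figure D2:**
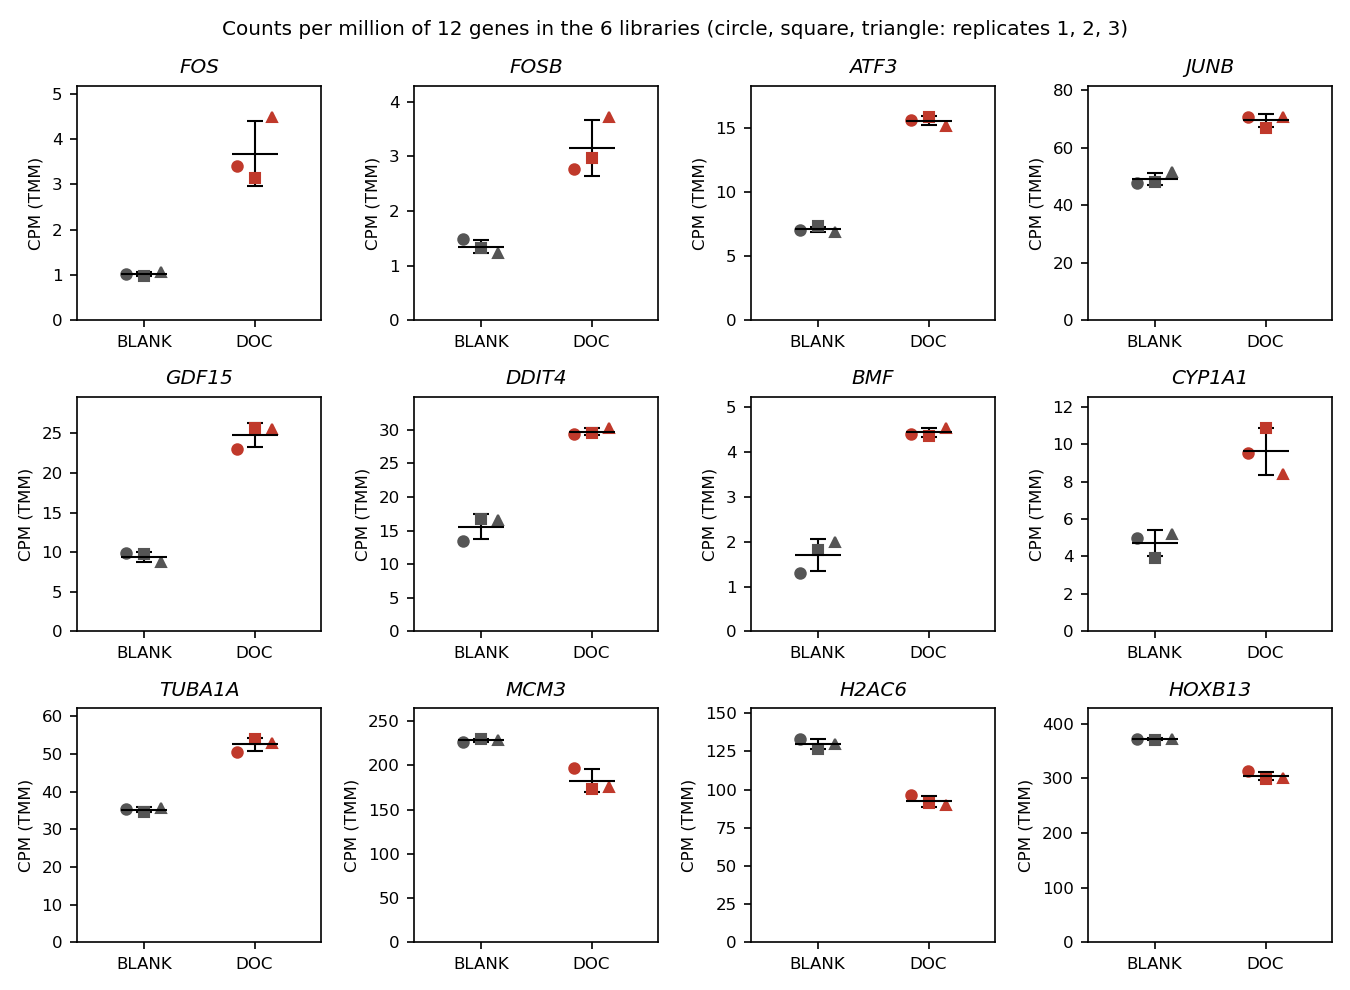
CPM (TMM-scaled, vertical axes from 0) of 12 genes in each BLANK (grey) and DOC (red) library; circles, squares and triangles are replicates 1, 2 and 3, and bars are the mean and SD of 3 libraries. In each of the 12 genes the 3 DOC libraries lie on 1 side of the 3 BLANK libraries, above them for FOS to TUBA1A and below them for MCM3, H2AC6 and HOXB13. For genes named by fold or adjusted p this was a condition of the choice. The groups also did not overlap in 31.5% of all genes tested.

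Promoter sequences are shown for 4 genes, 2 that rose (FOS, GDF15) and 2 of the groups that fell together (MCM3, H2AC6). Each runs 5′ to 3′ on the strand of the gene, from 250 bases before to 50 bases after the RefSeq start on GRCh38.p14. Capitals mark matches, searched on either strand. The first motif is the TATA box, spelled TATAAA. The second is the CCAAT box, which reads ATTGG where it lies on the opposite strand. The E2F motifs are TTTCCCGC and TTTGGCGC, and the octamer is ATGCAAAT. The cyclic AMP response element is TGACGTCA. The AP-1 motif is TGANTCA, and the C/EBP-ATF motif is TGATGNAA. No 2 of these motifs are the same run of letters, but matches may overlap.
FOS, chr14:75278578-75278877, plus strand: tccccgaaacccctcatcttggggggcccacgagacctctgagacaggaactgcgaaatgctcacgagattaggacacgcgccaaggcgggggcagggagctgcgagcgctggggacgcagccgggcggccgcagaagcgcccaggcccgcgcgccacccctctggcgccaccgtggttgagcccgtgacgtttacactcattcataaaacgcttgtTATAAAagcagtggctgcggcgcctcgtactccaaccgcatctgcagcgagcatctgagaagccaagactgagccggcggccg
GDF15, chr19:18385908-18386207, plus strand: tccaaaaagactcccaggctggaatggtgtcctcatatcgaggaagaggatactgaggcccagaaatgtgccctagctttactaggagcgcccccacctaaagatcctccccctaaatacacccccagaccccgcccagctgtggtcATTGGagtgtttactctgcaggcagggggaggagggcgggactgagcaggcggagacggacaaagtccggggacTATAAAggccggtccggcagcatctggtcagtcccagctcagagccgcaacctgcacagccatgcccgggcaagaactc
MCM3, chr6:52284693-52284992, minus strand: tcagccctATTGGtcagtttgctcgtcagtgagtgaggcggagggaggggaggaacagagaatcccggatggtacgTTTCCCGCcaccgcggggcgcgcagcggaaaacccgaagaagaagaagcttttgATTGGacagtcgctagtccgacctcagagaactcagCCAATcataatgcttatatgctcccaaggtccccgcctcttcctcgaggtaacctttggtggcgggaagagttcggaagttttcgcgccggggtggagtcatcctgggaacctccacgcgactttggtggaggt
H2AC6, chr6:26123922-26124221, plus strand: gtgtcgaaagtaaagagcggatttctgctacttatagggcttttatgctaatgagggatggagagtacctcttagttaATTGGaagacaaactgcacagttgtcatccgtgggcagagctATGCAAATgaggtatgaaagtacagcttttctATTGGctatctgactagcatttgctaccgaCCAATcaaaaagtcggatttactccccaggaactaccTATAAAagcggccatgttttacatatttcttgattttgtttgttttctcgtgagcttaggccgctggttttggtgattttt
Of these motifs the FOS window holds the TATA box only, GDF15 a TATA box and a CCAAT box, MCM3 an E2F motif and 3 CCAAT boxes, and H2AC6 an octamer, 3 CCAAT boxes and a TATA box. Of 10744 tested protein-coding genes with a promoter in the RefSeq table, 7.28% held TGANTCA, against 11.4% of the 605 called higher and 4.51% of the 1551 called lower. In all 27305 genes with a promoter in that table the share was 9.37%. Among the AP-1 and immediate early factors themselves, 1 of 22 promoters held TGANTCA. Other motifs differed too: the TATA box was in 9.16% of tested genes, 16.2% of those called higher and 9.28% of those called lower. These shares are not adjusted for GC content, with which the lower calls varied. A match is a run of letters and not a measured binding site.

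Stress hormones rose as well. GDF15, a secreted hormone of cell stress (chromosome 19, 18386158 to 18389176), had the smallest adjusted p of the genes named in this comparison. It stood at 9.85, 9.73 and 8.72 CPM in BLANK and at 23.1, 25.7 and 25.6 CPM after DOC, 2.63-fold higher (log2 1.39 ± 0.06, adjusted p = 1.07e-17). Adrenomedullin (ADM), a vasodilator peptide, rose from 26.1 to 29 CPM in BLANK to 34.3 to 36.2 CPM (log2 0.35 ± 0.05), and STC2 by 0.12 ± 0.03. FGF21, ADM2 and INHBE did not pass the test, so 3 of the 6 tested members of this list were called higher and none lower.

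Members of the ATF4 list went both ways: of 31 tested, 7 were called higher and 8 lower, and the median was −0.05. Those called higher included DDIT4, an inhibitor of mTORC1, at 13.4, 16.7 and 16.6 CPM in BLANK and 29.3, 29.6 and 30.3 CPM in DOC (log2 0.94 ± 0.06, adjusted p = 6.98e-13). They also included SESN2, another brake on mTORC1 (0.62 ± 0.07), the death-associated factor DDIT3 (0.53 ± 0.10), the glutathione-degrading enzyme CHAC1 (0.64 ± 0.14), the eIF2 phosphatase subunit PPP1R15A (0.33 ± 0.06) and the amino acid carrier SLC38A2 (0.21 ± 0.03). In contrast, the serine synthesis enzymes PHGDH and PSAT1 (each −0.19), the mitochondrial folate enzyme MTHFD2 (−0.15 ± 0.04) and the ATF4 partner CEBPG (−0.19 ± 0.05) fell, MTHFD2 not being called without BLANK replicate 2 or DOC replicate 2. The list median relative to genes of like GC content and abundance was 0.03. ATF4 mRNA itself (−0.07 ± 0.03, adjusted p = 0.113), ASNS (0.00 ± 0.04, adjusted p = 0.971) and TRIB3 (−0.12 ± 0.05, adjusted p = 0.0619) did not pass the test. Cytosolic aminoacyl-tRNA synthetases, which charge tRNAs and include ATF4 targets, had 12 of 20 called lower and none higher. IARS1 fell by 0.19 ± 0.03 and MARS1 by 0.17 ± 0.03. Their list median was −0.11, and −0.04 relative to genes of like GC content and abundance.

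Growth factors and cytokines were called higher in 7 of 19 members and lower in none, with a median log2 change of 0.21. The count was 4 without BLANK replicate 3 or without DOC replicate 3, and 3 with DESeq2. IL11, an interleukin-6 family cytokine, rose from 3.01, 3.01 and 3.10 CPM to 6.0, 4.98 and 5.26 CPM (log2 0.83 ± 0.13, adjusted p = 1.35e-05). PDGFB rose by 0.59 ± 0.13 and PTHLH, the parathyroid hormone-like peptide of bone metastasis, by 0.56 ± 0.14. AREG, a ligand of the EGF receptor, rose by 0.25 ± 0.08, LIF by 0.18 ± 0.06 and VEGFA by 0.16 ± 0.05. Each of these 3 calls was lost on leaving out 1 of several libraries, namely BLANK replicate 2 or 3 or DOC replicate 1 for AREG, BLANK replicate 1 or 3 or DOC replicate 2 or 3 for LIF, and BLANK replicate 1 or DOC replicate 3 for VEGFA.

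Of 21 tested NFkB-linked inflammatory genes 3 (14.3%) were called higher and 2 (9.52%) lower, against 7.16% and 9.81% of all genes. In this list 2 neutrophil-attracting chemokines went opposite ways. CXCL8 rose from 5.40, 4.87 and 5.45 CPM to 9.09, 9.03 and 7.86 CPM (log2 0.73 ± 0.10, adjusted p = 3.16e-06), while CXCL1 fell from 78.1, 71.7 and 73.8 CPM to 55.3, 60.3 and 60.6 CPM (−0.34 ± 0.04, adjusted p = 1.24e-06). Neither gene's groups overlapped, which held for 31.5% of all genes tested. IL1B rose by 0.62 ± 0.10. Interferon response and antigen presentation genes had 4 of 33 (12.1%) called higher and 2 (6.06%) lower. They were led by IRF9, a subunit of the interferon-activated ISGF3 complex, at 7.46 to 7.96 CPM in BLANK and 10.7 to 12.6 CPM in DOC (0.56 ± 0.10). The interferon counts were 2 higher and 3 lower without BLANK replicate 2, 2 and 1 on leaving out BLANK replicate 3, the same on leaving out DOC replicate 2, and 3 and 4 without DOC replicate 1. In the list of MAP kinase phosphatases and Sprouty proteins, which damp growth factor signalling, 4 of 16 were called higher and 3 lower. DUSP5 rose by 0.48 ± 0.08 and DUSP2 changed by −0.40 ± 0.11. Without BLANK replicate 2 these counts were 2 and 1. No member of that list, DUSP2 included, was called lower on leaving out BLANK replicate 3 or on leaving out DOC replicate 3.

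Among regulators of apoptosis the largest change was in BMF, a BH3-only protein that binds and blocks survival members of the BCL2 family. BMF (chromosome 15, 40087890 to 40108879) stood at 1.30, 1.81 and 1.99 CPM in BLANK and 4.41, 4.36 and 4.54 CPM after DOC (log2 1.38 ± 0.16, adjusted p = 2.66e-07). The survival gene BCL2L1 rose too, from 79.4 to 85.2 CPM up to 92.8 to 100.4 CPM (0.23 ± 0.04), as did PMAIP1 (0.20 ± 0.07). The pro-apoptotic genes BID (−0.25 ± 0.07) and BAD (−0.28 ± 0.08) were called lower, but neither was without BLANK replicate 2 or DOC replicate 2. BAD was also not called without BLANK replicate 3 or DOC replicate 3, nor was PMAIP1. BAX changed by 0.00 ± 0.06 (adjusted p = 0.997) and MCL1 by 0.04 ± 0.03 (adjusted p = 0.424). In all, 3 of 14 tested family members (21.4%) were called higher and 2 (14.3%) lower, against 7.16% and 9.81% of all genes. Of 16 death receptor pathway genes 1 (CFLAR, 0.13 ± 0.04) was called higher and 2 (TNFRSF10A and FADD) lower. None of the 16 was called with DESeq2, after thinning to equal depth or without BLANK replicate 3 or DOC replicate 2. Without DOC replicate 3 none was higher and 1 lower, and without BLANK replicate 1 or 2 the lower call was also 1. Of 20 p53 target genes 2 (10%) were called higher and 3 (15%) lower, and 1 higher without BLANK replicate 3 or DOC replicate 3. PC3 cells are known to lack functional p53.

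Tubulins, the subunits of microtubules, were called higher in 5 of 16 members and lower in 1, with a median log2 change of 0.12. The number higher was 3 without BLANK replicate 1 and 3 without DOC replicate 1, and the lower call was lost on leaving out any library but DOC replicate 2. TUBA1A (chromosome 12, 49184795 to 49189080) rose from 35.4, 34.5 and 35.7 CPM to 50.5, 54.1 and 52.9 CPM (0.58 ± 0.05, adjusted p = 1.26e-10). Its groups lay far apart relative to the spread within each. The abundant isotypes moved little. Per length, TUBA1B was at 1394 ± 13.3 FPKM in BLANK and 1455 ± 26.1 FPKM in DOC (log2 0.05 ± 0.02 on counts, adjusted p = 0.212), and TUBB at 879 ± 3.60 and 976 ± 35.8 FPKM (0.13 ± 0.02, adjusted p = 2.37e-04). TUBA1A was at 19.8 ± 0.197 and 29.4 ± 1.33 FPKM. TUBB3, the isotype often studied in drug resistance, changed by 0.10 ± 0.04 (adjusted p = 0.0711). In the list of tubulin folding and microtubule regulators none of 32 was called higher and 14 were called lower, 9 without BLANK replicate 1. Those lower included 7 subunits of the chaperonin that folds tubulin and actin besides TCP1, such as CCT5 (−0.21 ± 0.03). The median of that list relative to genes of like GC content and abundance was −0.05.

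The replication-dependent histone genes fell together. Of 43 tested members 36 were called lower and none higher, against 9.81% and 7.16% of all genes, with a median log2 change of −0.33. Without DOC replicate 1, 32 were called lower. Their summed level was 5090 to 5353 CPM in BLANK and 3915 to 4369 CPM in DOC. Relative to the BLANK mean, the median member was at −0.29, −0.35 and −0.37 (log2) in DOC replicates 1 to 3 and between −0.05 and 0.03 in the BLANK libraries. The median relative to genes of like GC content and abundance was −0.28. By class, all 3 linker H1 genes and all 11 H2A genes tested were called lower, as were 10 of 13 H2B, 7 of 8 H3 and 5 of 8 H4 genes. The class medians were −0.44 for H1, −0.43 for H2A, −0.23 for H2B, −0.42 for H3 and −0.26 for H4. H2AC6 (chromosome 6, 26124172 to 26124690), whose promoter is printed above, went from 133, 126 and 129.7 CPM to 96.5, 91.0 and 89.7 CPM (−0.49 ± 0.04, adjusted p = 3.75e-12). H2AC13 had the largest fall of the list, from 184, 189 and 192 CPM to 138, 111 and 119 CPM (−0.62 ± 0.06, adjusted p = 1.32e-05). The linker histone gene H1-3 stood at 205 CPM in DOC replicate 1 and at 147 and 149 CPM in replicates 2 and 3, against 232 to 264 CPM in BLANK. H2AX, the variant phosphorylated at DNA breaks and not among the 43, fell from 198, 202 and 208 CPM to 158, 161 and 156 CPM (−0.36 ± 0.03).

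Histone genes are near-identical copies, so the division of reads between single copies is uncertain. H2AC18 and H2AC19 had equal counts in every library and are 1 measurement (−0.50 ± 0.03, adjusted p = 5.38e-12), and the same held for H4C14 and H4C15. H4C11, at 0.26 with an adjusted p of 0.678, was the only tested member with a fitted rise. The promoters of this group share features that the counts did not use. Among 39 promoters found in RefSeq, 84.6% held a CCAAT box, 76.9% a TATA box and 46.2% the octamer, compared with 43.6%, 9.16% and 2.08% of the 10744 protein-coding genes tested.

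DNA replication genes were also lower: 25 of 47 tested were called lower and none higher, with a median of −0.16. Without DOC replicate 1 the counts were 28 and 1. The median relative to genes of like GC content and abundance was −0.13. The median member stood at −0.16, −0.18 and −0.17 in the 3 DOC libraries. All 6 subunits of the MCM2 to MCM7 helicase were called lower, and MCM3 (chromosome 6, 52264015 to 52284742) went from 227, 230.1 and 228 CPM to 197, 174 and 176 CPM (−0.32 ± 0.04, adjusted p = 2.78e-06). The sliding clamp PCNA fell from 112, 111 and 105 CPM to 88.5, 92.6 and 92.6 CPM (−0.26 ± 0.04). GINS2, part of the replicative helicase with MCM2 to MCM7, changed by −0.37 ± 0.06, the initiation factor MCM10 by −0.36 ± 0.05, the licensing factor CDT1 by −0.25 ± 0.04 and the flap nuclease FEN1 by −0.27 ± 0.04. The origin recognition subunits ORC2 to ORC6 did not pass the test. TTTCCCGC was found in the promoters of 10 of 41 members (24.4%), against 3.19% of protein-coding genes tested, 5.35% of those called lower and 1.65% of those called higher. TTTGGCGC was found in 14.6% of members and 1.33% of protein-coding genes tested.

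Deoxynucleotide synthesis followed the same direction, with 8 of 10 genes called lower and none higher (median −0.18, and −0.13 relative to genes of like GC content and abundance). TYMS, the thymidylate synthase, went from 95.9 to 101 CPM down to 82.8 to 87.4 CPM (−0.21 ± 0.04), and DTYMK changed by −0.32 ± 0.06. Cell cycle regulators of G1 and S had 7 of 28 (25%) called lower and 2 (7.14%) higher, against 9.81% and 7.16% of all genes. In the most abundant of the 4 classes of protein-coding genes the share lower was 31.3%. The median of the G1 and S list was −0.06, and −0.02 relative to genes of like GC content and abundance. Those lower included E2F1 (−0.26 ± 0.05), E2F2 (−0.33 ± 0.06) and MYBL2 (−0.25 ± 0.03). Those higher were both inhibitors of cyclin-dependent kinases: CDKN1A (p21) at 9.08, 9.60 and 8.5 CPM in BLANK and 11.1, 14.4 and 14 CPM in DOC (0.54 ± 0.09, adjusted p = 2.98e-05), and CDKN2B (p15) by 0.45 ± 0.06. UHRF1, which recruits the maintenance DNA methyltransferase at replication forks, fell from 324, 337 and 336 CPM to 275, 251 and 255 CPM (−0.35 ± 0.03, adjusted p = 5.58e-10).

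Of 41 mitotic genes tested 12 (29.3%) were called lower and none higher, against 9.81% and 7.16% of all genes and 31.3% lower among the most abundant of the 4 classes of protein-coding genes. The number lower was 5 without BLANK replicate 2, 6 without DOC replicate 3 and 2 with limma-trend, and the median was −0.07, or −0.04 relative to genes of like GC content and abundance. CENPF changed by −0.20 ± 0.03 and the proliferation marker MKI67 by −0.18 ± 0.03. The mitotic kinases PLK1 (0.01, adjusted p = 0.824) and AURKA (−0.02, adjusted p = 0.797) and cyclin B1 (CCNB1, −0.04, adjusted p = 0.520) did not pass the test. Homologous recombination and Fanconi genes had 11 of 29 called lower, 6 without BLANK replicate 3, and none higher (median −0.12, or −0.10 centred in the same way). EXO1 changed by −0.22 ± 0.04 and BRCA1 by −0.24 ± 0.06.

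**Figure D3:**
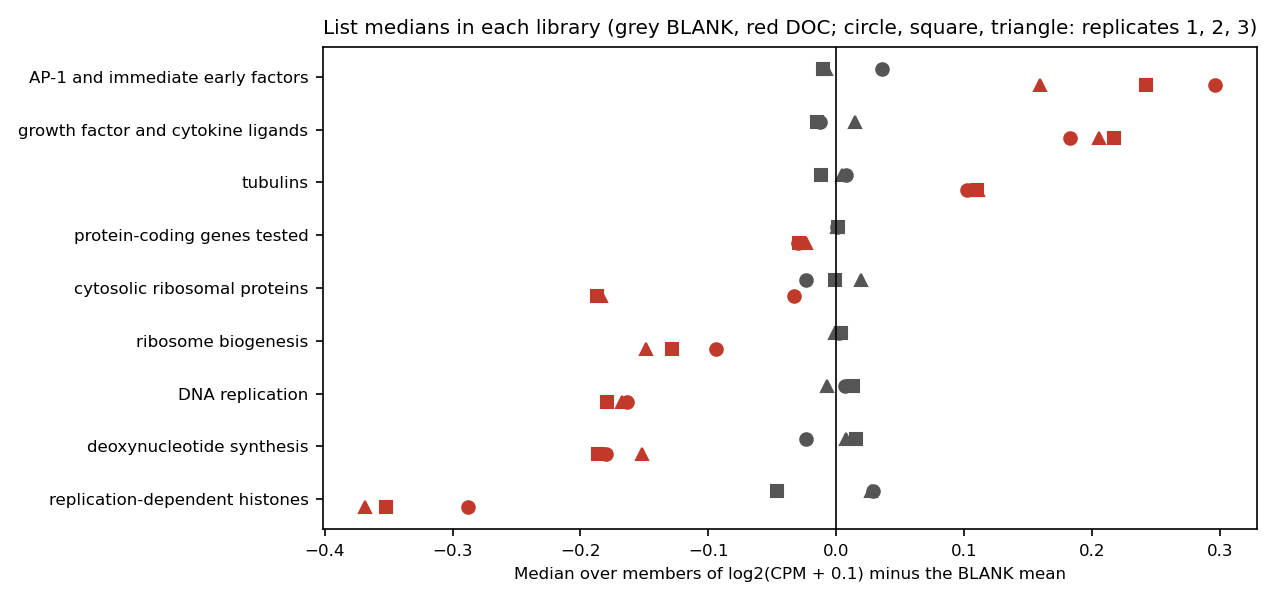
Median over list members of log2(CPM + 0.1) minus the BLANK mean of the same gene (horizontal axis), for 9 groups of genes in each BLANK (grey) and DOC (red) library; circles, squares and triangles are replicates 1, 2 and 3. The DOC medians of histones lie between −0.37 and −0.29, those of DNA replication genes between −0.18 and −0.16 and those of AP-1 and immediate early factors between 0.16 and 0.30, while DOC replicate 1 differs from the other 2 for cytosolic ribosomal proteins (−0.03).

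Genes that make ribosomes were lower. In ribosome biogenesis 22 of 33 genes were called lower and none higher (median −0.13, or −0.08 relative to genes of like GC content and abundance). RRS1, an assembly factor of the large subunit, went from 68.5, 69.7 and 72.4 CPM to 53.7, 50.7 and 52.4 CPM (−0.43 ± 0.05, adjusted p = 2.80e-08), and MYBBP1A changed by −0.23 ± 0.03. For the cytosolic ribosomal proteins 27 of 52 were called lower and none higher (median −0.12, and −0.06 relative to genes of like GC content and abundance), and here DOC replicate 1 differed. The list median stood at −0.03 in that library and at −0.19 and −0.18 in DOC replicates 2 and 3. Without DOC replicate 1 the number lower was 43, without replicate 2 it was 17 and without replicate 3 it was 16. RPL10A had 301, 310 and 308 CPM in BLANK and 274, 246 and 252 CPM in DOC (−0.25 ± 0.03, adjusted p = 1.08e-06).

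Chaperones and proteases followed. Mitochondrial chaperones and proteases had 8 of 14 called lower and none higher, with LONP1 at −0.31 ± 0.04 and TRAP1 at −0.25 ± 0.03. Their median was −0.13, and −0.08 relative to genes of like GC content and abundance. Cytosolic heat shock genes had 12 of 28 called lower and 3 higher, with HSPA8 at −0.14 ± 0.02 and HSPA1A at −0.19 ± 0.04. The log2 changes of these 28 ran from −0.22 to 0.51, with 20 below 0 and 8 above. In the endoplasmic reticulum 11 of 23 were called lower and 3 higher. The medians of the heat shock and endoplasmic reticulum lists were −0.09 and −0.08, and −0.05 for each relative to genes of like GC content and abundance. The main chaperone there, HSPA5, fell from 530.4, 545 and 545 CPM to 486, 471 and 462 CPM (−0.19 ± 0.03, adjusted p = 5.54e-06), whereas its co-chaperone DNAJB9 (0.54 ± 0.14) and the stress sensor ERN1 (0.34 ± 0.08) rose. Proteasome subunits had 14 of 32 (43.8%) called lower and none higher, against 9.81% and 7.16% of all genes. This count was 6 without BLANK replicate 2 and 7 without DOC replicate 2.

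Mitochondrial ribosomal proteins had 17 of 47 (36.2%) called lower, 8 without DOC replicate 3 and 9 without BLANK replicate 2 or without DOC replicate 2. Nuclear-encoded respiratory chain genes had 12 of 40 (30%) called lower, 6 without BLANK replicate 3 or DOC replicate 2, 7 without BLANK replicate 2 and 18 without DOC replicate 1. Of all genes 9.81% were called lower, and 31.3% of the most abundant of the 4 classes of protein-coding genes, near the share of the respiratory chain. No member of either list was called higher, apart from 1 respiratory chain gene without DOC replicate 3. Relative to genes of like GC content and abundance, the medians were −0.06 for the proteasome, −0.07 for mitochondrial ribosomal proteins and −0.03 for the respiratory chain.

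**Figure D4:**
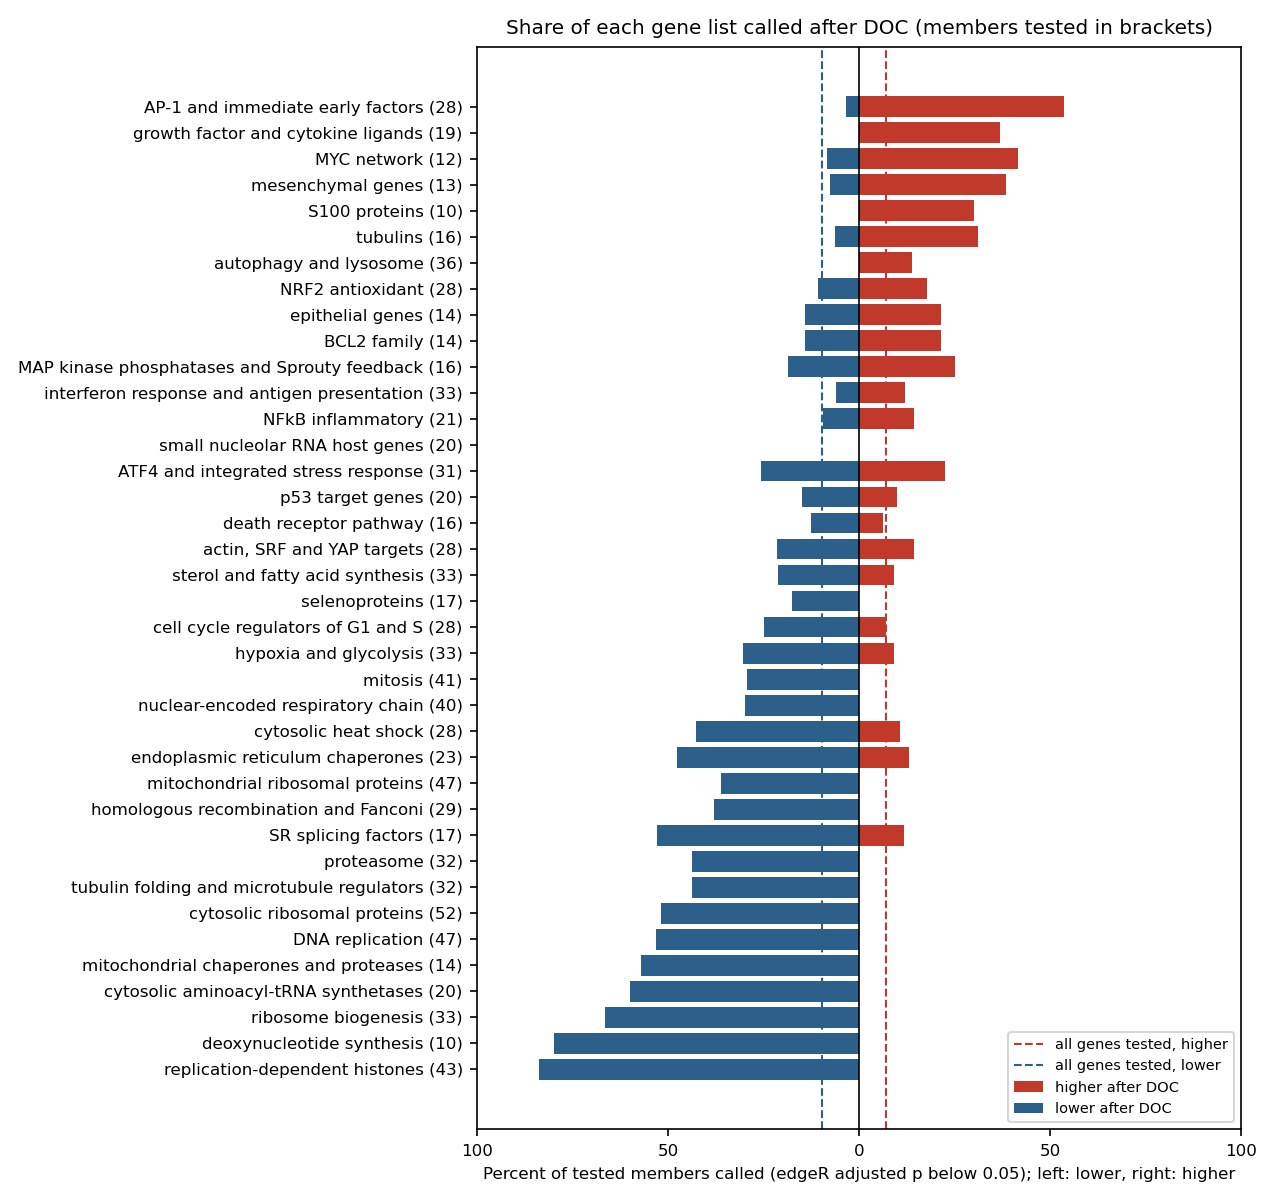
Percent of tested members called higher (red, to the right) or lower (blue, to the left) after DOC for each list with at least 10 tested members (number in brackets), with dashed lines at the shares of all genes tested, 7.16% higher and 9.81% lower. Histones (36 of 43) and deoxynucleotide synthesis (8 of 10) have the largest shares lower, and AP-1 and immediate early factors (15 of 28) the largest share higher.

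Metabolic genes showed mixed calls. For comparison, 7.16% of all genes were called higher and 9.81% lower. Of the most abundant of the 4 classes of protein-coding genes 31.3% were called lower. Of 33 sterol and fatty acid synthesis genes 3 (9.09%) were called higher and 7 (21.2%) lower. The number lower was 4 without DOC replicate 2, and the number higher was 1 without BLANK replicate 3, DOC replicate 2 or DOC replicate 3. FASN, the fatty acid synthase, fell (−0.24 ± 0.03), while the cholesterol pathway enzymes SQLE (0.24 ± 0.04) and HMGCS1 (0.19 ± 0.05) were called higher, HMGCS1 not without any of those 3 libraries. The list median was −0.0023, and 0.06 relative to genes of like GC content and abundance. Of 33 hypoxia and glycolysis genes 3 (9.09%) were called higher (NDRG1, ADM and VEGFA) and 10 (30.3%) lower. The number lower was 6 on leaving out BLANK replicate 2 or 3 or DOC replicate 2 or 3. The median was −0.04, and 0.03 relative to genes of like GC content and abundance. NDRG1 rose from 330.01, 321 and 324 CPM to 422, 441 and 422 CPM (0.40 ± 0.03, adjusted p = 1.31e-12), and PFKL, a glycolytic phosphofructokinase, changed by −0.30 ± 0.04. CYP1A1, a xenobiotic-metabolising P450 induced through the aryl hydrocarbon receptor (chromosome 15, 74719542 to 74725528), rose from 4.99, 3.94 and 5.23 CPM to 9.51, 10.9 and 8.42 CPM (1.03 ± 0.11, adjusted p = 5.68e-08).

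NRF2 antioxidant genes had 5 of 28 called higher and 3 lower, with 1 lower without BLANK replicate 3 and 5 without DOC replicate 1. OSGIN1 rose by 0.48 ± 0.09, AKR1C3 by 0.63 ± 0.15 and the haem-degrading enzyme HMOX1 by 0.26 ± 0.06, and the NRF2 inhibitor KEAP1 changed by −0.26 ± 0.04. None of 3 metallothionein and zinc export genes was called. Selenoproteins had 3 of 17 called lower and none higher (median −0.10, and −0.03 relative to genes of like GC content and abundance). Autophagy and lysosome genes had 5 of 36 called higher, 3 without BLANK replicate 1 or DOC replicate 2, and none lower, led by GABARAPL1 (0.53 ± 0.11). Of 8 drug efflux genes 1, MVP, was called (0.19 ± 0.07), and it was called in 4 of 15 alternatives. It was not called with DESeq2, with the replicate block, or on leaving out any BLANK replicate or DOC replicate 1. ABCB1, the classical multidrug transporter, changed by 1.02 ± 0.39 (adjusted p = 0.0679) at 0.225 to 1.12 CPM, with 13.3% of its counts on RefSeq rows.

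In the MYC network 5 of 12 were called higher, 3 without BLANK replicate 2 or DOC replicate 2, and 1 (MYC) lower. MXD1, which competes with MYC for its partner MAX, rose from 8.63 to 9.76 CPM up to 12.6 to 13.9 CPM (0.51 ± 0.08), and TXNIP rose by 0.18 ± 0.04. Among SR splicing factors and their kinases 9 of 17 were called lower and 2 higher (median −0.10, and −0.05 relative to genes of like GC content and abundance). SRSF6 changed by −0.21 ± 0.03 and SRSF1 by −0.11 ± 0.03, while the kinases CLK1 (0.49 ± 0.06) and CLK4 (0.28 ± 0.08) rose. CLK4 is uncertain, since 27.8% of its counts lay on RefSeq rows and it was not called without DOC replicate 2. The nuclear RNAs NEAT1 (0.30 ± 0.03) and MALAT1 (0.14 ± 0.02) rose, and 3 of 5 tested nuclear-retained RNAs were called higher. None of 20 small nucleolar RNA host genes was called.

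Structural and lineage genes changed in both directions. HOXB13, the homeobox factor of prostate epithelium, fell from 373, 370.5 and 373 CPM to 313, 299 and 302 CPM (−0.29 ± 0.03, adjusted p = 6.34e-09), and KRT18 by 0.20 ± 0.04 on the log2 scale. The collagen receptor subunit ITGA2 rose from 134, 139 and 132 CPM to 160, 173 and 165 CPM (0.30 ± 0.03). Epithelial genes had 3 of 14 called higher, 1 without DOC replicate 2, and 2 lower. Mesenchymal genes had 5 of 13 called higher and 1, VIM (−0.13 ± 0.03), lower; the number higher was 3 on leaving out BLANK replicate 2 or 3 or DOC replicate 2 or 3. FN1, fibronectin, rose from 22.9 to 25.9 CPM up to 30.7 to 37.1 CPM (0.43 ± 0.06). Actin, SRF and YAP target genes had 4 of 28 called higher and 6 lower, with 7 higher without DOC replicate 1, 1 without DOC replicate 2 and none after thinning to equal depth. Those lower included the actin-binding CORO1A, with 2.88, 3.32 and 2.57 CPM in BLANK and 1.70, 1.95 and 1.53 CPM in DOC (−0.75 ± 0.18, adjusted p = 3.36e-03). Of 10 S100 genes 3 were called higher, 1 without BLANK replicate 2 and 1 with limma-trend, and S100P rose from 0.398 to 0.450 CPM up to 0.919 to 1.49 CPM (1.46 ± 0.27).

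Fibroblast markers summed to 117 to 129 CPM in BLANK and 116 to 131 CPM in DOC, and 1 of 7 tested, COL3A1, was called higher. COL3A1 was highest in DOC replicate 1, with 2.60 CPM against 1.13 and 0.919 CPM in the other DOC libraries, and was not called without it (0.58, adjusted p = 0.267) or without BLANK replicate 1 or 3. Immune markers summed to 41.5 to 46.1 CPM in BLANK and 49.5 to 50.6 CPM in DOC, nearly all of it CD68, and none of 3 tested was called. Neuroendocrine markers summed to 29.4 to 30.7 CPM and 29.9 to 31.5 CPM, nearly all of it ENO2, and neither tested member was called.

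Other genes with large or firm changes fell outside these lists. RGS4, which shortens G protein signals, rose from 94.3, 93.1 and 93.1 CPM to 129.5, 135 and 134 CPM (0.51 ± 0.03, adjusted p = 6.98e-13), and ERRFI1, an inhibitor of the EGF receptor, from 298, 289 and 285 CPM to 364, 385 and 395 CPM (0.39 ± 0.03, adjusted p = 8.25e-12). WNT9A, a secreted WNT ligand, rose by 0.94 ± 0.14, IQCN by 0.94 ± 0.19 and CMYA5 by 0.97 ± 0.21. LRRC45, a centrosome linker protein, fell from 31.9, 33.8 and 35.4 CPM to 24.7, 20.9 and 22.1 CPM (−0.58 ± 0.06, adjusted p = 5.68e-08). MAGEA2B (−0.84 ± 0.29) had the largest fall by the naming rule, but it was called in only 4 of 15 alternative analyses and not without DOC replicate 1 (adjusted p = 0.189). KCTD8, IFT70A, CSNK2A3 and NPL, with fitted log2 changes of −0.75, −0.66, −0.57 and −0.57, were called in 8, 9, 6 and 5 of 15 alternatives. The reference genes GAPDH (−0.12 ± 0.02) and ACTB (−0.08 ± 0.03, adjusted p = 0.0274) were called slightly lower, and ACTB was not called without DOC replicate 1 (adjusted p = 0.118) or BLANK replicate 1 or 3.

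The response was also compared directly with that to AgNPs, a contrast in which the BLANK libraries cancel. The AgNPs libraries were shallower, with 13049868 to 13362290 linear counts. In all, 5120 genes (25.6% of those tested) differed between DOC and AgNPs, 2381 (11.9%) higher and 2739 (13.7%) lower in DOC. GDF15 (log2 DOC minus AgNPs −3.40, adjusted p = 3.71e-37), S100P (−2.91), ATF3 (−1.85, adjusted p = 2.12e-24), DDIT4 (−1.69), FOS (−1.01 ± 0.14, adjusted p = 8.05e-07) and JUNB (−0.43) were all lower in DOC than in AgNPs. By list, 28 of 31 ATF4 genes, 27 of 28 NRF2 genes, 21 of 28 cytosolic heat shock genes and 21 of 32 proteasome genes were lower in DOC. Mitotic genes were higher in DOC in 35 of 41 members and lower in none, with a median difference of 0.31, and ribosome biogenesis genes in 24 of 33 and lower in none. RGS4 was also higher (1.03, adjusted p = 4.74e-22).

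DNA replication genes did not lean to either treatment, with 10 of 47 higher and 9 lower in DOC than in AgNPs and a median difference of 0.00. Histones had 14 of 43 lower in DOC and 3 higher, with a median difference of −0.10. Tubulins were higher in 8 of 16 and lower in 1, among them TUBB (0.31), TUBB4B (0.40) and TUBA1A (0.18). For BMF the difference was 0.01 (adjusted p = 0.959) and for CYP1A1 0.04 (adjusted p = 0.840). NR4A2 (−0.07, adjusted p = 0.876) and IQCN (−0.02, adjusted p = 0.952) did not pass the test either.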

How the data were processed

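RNA of PC3 cells was sequenced in 12 libraries, 3 per group, of which the 6 of BLANK and DOC are described here. Per the submitters' processing notes, HISAT2, Bowtie2 2.2.5, RSEM and GRCh38 were used; which step used which is not given in the sources used here. The authors deposited expected counts per transcript, unnormalised, and for linear transcripts FPKM, a unit read from the values since the header names none. The 177700 linear rows were summed per gene and the sums rounded. The test was that of edgeR 4.0.16 under R 4.3.3 (TMM, filterByExpr, robust quasi-likelihood fit over all 12 libraries, 1 coefficient per group), two-sided, with Benjamini-Hochberg adjustment over 19986 genes and a threshold of 0.05. The common biological coefficient of variation was 0.0334. Errors of log2 changes are standard errors of this fit.

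Named genes are protein-coding, with a mean log2 CPM of 1 or more over all 12 libraries, 50% or more of counts on RefSeq rows and no overlap between groups: the 12 with the largest fold and the 8 with the smallest adjusted p each way, plus list members, GAPDH and ACTB. Members and lists were chosen with earlier results of these data known. Mitochondrially encoded genes, KLK2 and KLK3 were not analysed here, and some list members are not reported here. GC content came from GENCODE transcripts. Alternatives were DESeq2 1.42.0, limma 3.58.1 on log2(FPKM + 1), RLE factors, 2 other filters, a fit of 6 libraries, a replicate block, RefSeq rows only, thinning to equal depth and leaving out each library.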

Additional observations from a re-analysis of the deposited data

How the results depend on the processing

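Among the 1033 named genes and list members, most kept their direction and their side of the threshold under each alternative, from 827 with limma-trend on log2(FPKM + 1) to 1016 with a filter of 1 CPM in 3 libraries. With limma-trend 201 lost their call, and without DOC replicate 1, 88 gained one and 33 lost theirs. The number of genes called was 1090 with limma-trend, 2674 with a fit of the 6 libraries, 2208 after thinning to equal depth and 2204 to 4027 on leaving out 1 library. Genes called higher numbered 709 with DESeq2, 839 on RefSeq rows only, 513 with limma-trend, 910 after thinning and 884 to 1720 on leaving out 1 library; those called lower numbered 577 with limma-trend, 1298 after thinning and 1320 to 2307 on leaving out 1 library. Genes at least 2-fold higher numbered 86 with the 1 CPM filter, 30 with DESeq2, 68 on RefSeq rows only, 1 with limma-trend, 230 with no filter and 107 to 152 on leaving out 1 library. Thinning and leaving out a library reduce the counts or samples tested, but without DOC replicate 1 more genes were called, 4027 against 3391. The cause of these shifts was not tested. The direction reversed for ACTB (0.0101) and FANCG (0.0322) with limma-trend and for CHORDC1 (−0.55) on RefSeq rows only. The counts of DOC against AgNPs stayed within 1.5 times under all alternatives run, with 4109 to 5333 called on leaving out 1 library. Same-numbered BLANK and DOC libraries did not deviate together (correlations −0.11, −0.02 and −0.05), and a replicate block gave 3206 called genes. Centring list medians on genes of the same GC and abundance class, added after seeing the data, moved 34 of 45 list medians by more than the spread between DOC libraries. It kept the sign in 38 and changed it in 7, among them the ATF4 list (−0.05 to 0.03) and hypoxia and glycolysis (−0.04 to 0.03). Depth limits the scarce genes: at about 1 CPM, FOS and NR4A2 carry standard errors of 0.19 and 0.26 on the log2 scale, against 0.02 for TUBB.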

Other observations

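Genes outside the lists were looked at beside 1 result and were chosen after their values were seen. Beside CYP1A1, 2 other genes known to respond to the aryl hydrocarbon receptor were called higher: TIPARP went from a mean of 143 CPM in BLANK to 169 CPM in DOC (log2 0.24 ± 0.03, adjusted p = 1.25e-06) and ALDH3A1 from 125 to 149 CPM (0.26 ± 0.03, adjusted p = 1.45e-07). CYP1B1 (0.15 ± 0.06, adjusted p = 0.0694), AHRR (0.10 ± 0.07, adjusted p = 0.372) and NQO1 (−0.01 ± 0.03, adjusted p = 0.852) did not pass the test.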
